A study of Homo sapiens with 8 samples.

Results

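The transcripts described here come from 42 genes of the G2 phase and of mitosis, out of 27936 genes counted in HEK293, a transformed cell line that was started from human embryonic kidney. They were chosen by name for what their products do in cell division, with earlier results of these data known, and were found in the count tables by Entrez gene ID. All 42 had enough counts to be tested, among 14455 genes that did. The libraries compared were 4 labelled TIP60 knock-out (KO) and 4 labelled control, each arm with 2 libraries of a guide RNA called sgRNA1 and 2 of a guide RNA called sgRNA2. TIP60, the product of KAT5, is an enzyme that acetylates lysines of histones and other proteins as part of the NuA4 complex. The genotype label was HEKg1/C9 for the KO libraries and HEKg1 for the control libraries, and neither name was explained. All 8 samples, controls included, had been given doxycycline for 3 days, at 1 µg/ml, to switch on the guides. The labels did not give the targets of the control guides, whether a line was 1 clone, or whether replicates came from separate cultures, so the p-values measure only the spread between these libraries.

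A cell enters mitosis when cyclin B and its kinase CDK1 become active, a step opened by CDC25 phosphatases and reinforced by Polo and Aurora kinases. Kinesins and microtubule-binding proteins then build the spindle, kinetochores attach chromosomes to it, and the spindle checkpoint holds back the anaphase-promoting complex until every chromosome is attached. Most of the genes concerned are transcribed late in the cell cycle, through promoters that carry CCAAT boxes, bound by NF-Y, and an element called CHR (cell cycle genes homology region), bound by the MuvB core of the DREAM, MYBL2 and FOXM1 complexes. HEK293 cells divide continuously, so these transcripts are abundant in them.

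The promoters of 8 members are printed because they belong to the members that stood at either end of the range of changes described below. Each window runs from 250 bases before to 50 bases after the annotated start, read 5′ to 3′ on the strand of the gene, from RefSeq on GRCh38.p14. Capitals mark CHR words (TTTGAA or TTCGAA) and CCAAT words, each on either strand. The first set holds the members with the largest decreases among those with an entry in the RefSeq promoter table.
CENPA, chr2:26785806-26786105, plus strand: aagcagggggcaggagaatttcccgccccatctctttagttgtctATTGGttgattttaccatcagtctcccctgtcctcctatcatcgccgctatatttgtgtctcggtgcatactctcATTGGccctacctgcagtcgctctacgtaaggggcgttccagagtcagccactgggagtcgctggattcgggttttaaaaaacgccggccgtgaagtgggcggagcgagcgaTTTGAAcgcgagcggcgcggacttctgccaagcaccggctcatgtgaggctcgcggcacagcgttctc
KIF20A, chr5:138178862-138179161, plus strand: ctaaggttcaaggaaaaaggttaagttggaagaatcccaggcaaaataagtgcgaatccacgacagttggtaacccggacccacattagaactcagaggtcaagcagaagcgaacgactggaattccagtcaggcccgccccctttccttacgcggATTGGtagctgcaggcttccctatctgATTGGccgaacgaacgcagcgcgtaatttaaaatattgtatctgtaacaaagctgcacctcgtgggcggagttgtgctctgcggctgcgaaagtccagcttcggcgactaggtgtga
BUB1B, chr15:40160819-40161118, plus strand: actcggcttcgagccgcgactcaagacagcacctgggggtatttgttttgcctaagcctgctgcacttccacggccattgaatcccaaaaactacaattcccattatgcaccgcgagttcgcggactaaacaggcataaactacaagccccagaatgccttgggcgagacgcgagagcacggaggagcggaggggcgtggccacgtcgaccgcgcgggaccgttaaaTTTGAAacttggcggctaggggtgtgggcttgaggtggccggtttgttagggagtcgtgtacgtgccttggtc
PLK1, chr16:23678639-23678938, plus strand: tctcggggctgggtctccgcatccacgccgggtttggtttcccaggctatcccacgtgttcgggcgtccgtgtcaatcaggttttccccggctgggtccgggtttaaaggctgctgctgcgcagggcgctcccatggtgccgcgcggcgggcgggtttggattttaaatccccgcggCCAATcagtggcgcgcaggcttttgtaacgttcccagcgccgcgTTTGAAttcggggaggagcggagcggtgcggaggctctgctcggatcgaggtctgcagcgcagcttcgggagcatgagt
The second set holds the 4 members that were higher in every KO library than in every control library.
NEK2, chr1:211675572-211675871, minus strand: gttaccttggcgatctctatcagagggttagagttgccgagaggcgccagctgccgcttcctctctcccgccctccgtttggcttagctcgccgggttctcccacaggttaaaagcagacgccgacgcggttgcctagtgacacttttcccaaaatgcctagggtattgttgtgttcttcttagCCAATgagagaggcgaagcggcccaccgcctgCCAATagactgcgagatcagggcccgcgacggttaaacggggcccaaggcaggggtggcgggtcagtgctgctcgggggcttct
SGO1, chr3:20186157-20186456, minus strand: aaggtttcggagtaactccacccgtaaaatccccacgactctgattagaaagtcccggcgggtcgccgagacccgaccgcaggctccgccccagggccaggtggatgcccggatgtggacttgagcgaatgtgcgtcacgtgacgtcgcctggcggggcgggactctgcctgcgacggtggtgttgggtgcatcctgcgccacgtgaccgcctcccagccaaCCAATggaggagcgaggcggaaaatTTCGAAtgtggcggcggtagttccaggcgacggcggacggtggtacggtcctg
BUB1, chr2:110678014-110678313, minus strand: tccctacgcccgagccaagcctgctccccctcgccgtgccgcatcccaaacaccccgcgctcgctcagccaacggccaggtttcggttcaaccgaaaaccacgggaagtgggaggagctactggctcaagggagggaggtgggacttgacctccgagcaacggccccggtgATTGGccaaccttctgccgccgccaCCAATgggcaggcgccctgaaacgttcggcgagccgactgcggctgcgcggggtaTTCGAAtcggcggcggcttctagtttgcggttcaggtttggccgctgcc
NUF2, chr1:163321704-163322003, plus strand: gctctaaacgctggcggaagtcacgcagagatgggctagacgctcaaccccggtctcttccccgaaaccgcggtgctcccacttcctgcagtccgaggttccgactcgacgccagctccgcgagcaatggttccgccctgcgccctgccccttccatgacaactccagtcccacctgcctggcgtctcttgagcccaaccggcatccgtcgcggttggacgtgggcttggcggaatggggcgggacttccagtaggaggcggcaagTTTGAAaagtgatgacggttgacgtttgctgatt

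The words in capitals were frequent in both sets and in the members as a whole. A promoter entry was found for 36 members; there was none for AURKA, TTK, UBE2C, BIRC5, TPX2 and FOXM1. A CHR word stood in 25 of the 36 windows (69.4%), against 16.6% of all 27305 promoters in the table and 11.1% of those of the genes tested. In 20 members a CHR word began within 50 bases of the start, as in CENPA (position -18, counting back from the start), BUB1B (-23), PLK1 (-29) and SGO1 (-3). CCAAT stood in 27 windows (75%), against 35.7% of all promoters and 37% of those of the genes tested, and both motifs in 21 (58.3%), against 6.58% and 4.7%. An E2F word (TTTGGCGC, TTTGCCGC, TTTCGCGC or TTTCCCGC on either strand) was in 3 windows, those of CDK1, CENPA and NUSAP1 (8.33%, against 3.33% of all promoters and 5.32% of those of the genes tested). Words of different motifs shared a base in 1 member, MKI67, where a CHR and a CCAAT word overlap.

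**Figure D1:**
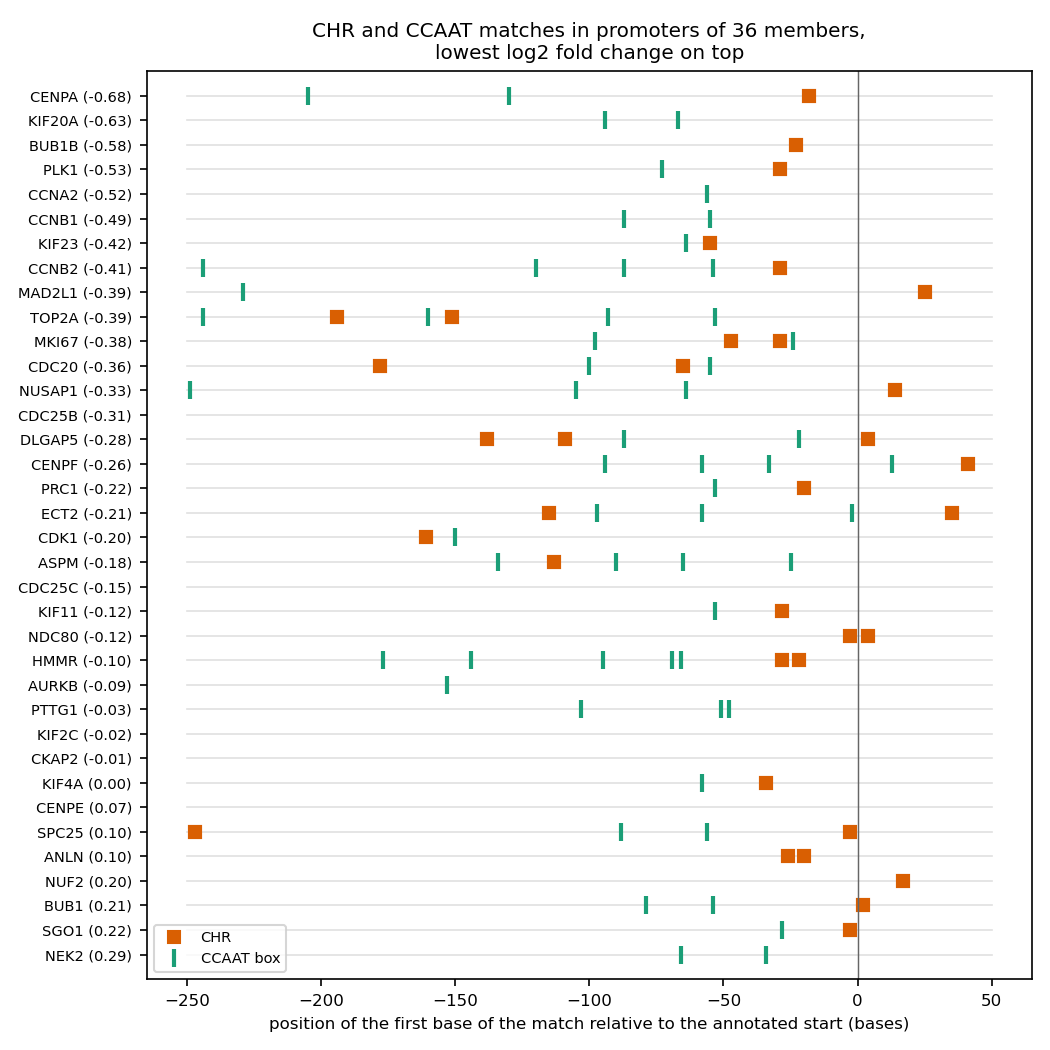
Positions of CHR and CCAAT words (x axis, bases from the annotated start, negative before it) in the promoter windows of the 36 members with an entry, 1 line per member, ordered by log2 fold change of KO over control. Of 58 CCAAT words, 43 lie between positions -110 and -20, and CHR words lie close to the start at both ends of the order.

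Both motifs were found in members of either direction. Among the members with an entry, CHR was in 17 of 22 that were lower in KO, in 4 of 5 that were higher and in 4 of 9 that passed in neither direction. CCAAT was in 19 of the lower, 3 of the higher and 5 of the other members. Over all genes tested, CHR was in 10.4% of the promoters of genes lower in KO, in 11% of those of genes higher and in 11.7% of the others. For CCAAT those shares were 34% of genes lower, 40.4% of genes higher and 36.6% of the others. A match is a run of letters, and binding was not measured.

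Depth ranged over 13325415 to 18841774 counts for KO and 3723992 to 14601552 counts for control libraries, where control sgRNA1 replicate 2 was the shallowest. KAT5 itself had 18.6, 18.3, 20.2 and 18.0 CPM (counts per library size, adjusted by TMM factors) in the KO libraries, against 48.1, 45.5, 44.5 and 49.0 CPM in the control libraries. KO libraries thus kept 40.1% of the control level of KAT5 mRNA, a log2 fold change of -1.32 ± 0.064 (SE; edgeR quasi-likelihood test with Benjamini-Hochberg adjustment over all genes, adjusted p = 6.71e-13). Of the markers for HEK293 and the kidney lineage, SALL1, EYA1, SIX2 and WT1 were present in every library. PAX2 was at 0.901 CPM in KO and 0.706 CPM in control libraries, and PAX8 at 0.0944 CPM in KO and 0.0374 CPM in control libraries. LHX1 was likewise near absent, at 0.145 CPM in KO and 0.170 CPM in control libraries. The 7 genes of that list summed to 86.1 to 87.1 CPM in KO and 65.7 to 81.8 CPM in control libraries, with EYA1 higher (0.61 ± 0.075, edgeR adjusted p = 5.74e-07) and WT1 lower (-0.41 ± 0.089, adjusted p = 4.33e-04) in KO. Among markers of other cell types, the summed level ran from 0.199 to 0.520 CPM in KO and from 0.0808 to 0.539 CPM in control libraries for leukocytes, and from 24.1 to 28.2 CPM in KO and 18.6 to 28.97 CPM in control libraries for fibroblasts. The 4 endothelial markers summed to 2.78 to 3.79 CPM in KO and 0 to 0.404 CPM in control libraries, with CDH5 at 0 in every control. Most of the KO sum was KDR, at 2.10 CPM in KO and 0.130 CPM in control libraries (3.57 ± 0.42, edgeR adjusted p = 3.42e-07). The other endothelial markers had too few counts to be tested. For hepatocytes the sums were 1.36 to 2.08 CPM in KO and 0.565 to 0.966 CPM in control libraries, with SERPINA1 at 0 in all 8. Epithelial carcinoma markers, nearly all EPCAM, summed to 13.2 to 16.1 CPM in KO and 16.8 to 20.9 CPM in control libraries, with KRT20 at 0 throughout. The part of these marker differences in the results was not tested.

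Summed over the members, mitotic transcripts were lower in KO than in control cells. The 42 members together made up 6831, 6855, 6886 and 6810.2 CPM in the KO libraries, against 8554, 8049, 7802 and 8121 CPM in the control libraries. Every KO library lay below every control library, and the KO mean of 6846 ± 32.5 CPM was 84.2% of the control mean of 8131 ± 313 CPM (SD, n = 4 each). The spread among controls was wider than that among KO libraries. In a bulk RNA library, fewer cells in G2 and mitosis and less of these transcripts per cell cannot be told apart.

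Of the 42 members, 28 (66.7%) passed as lower in KO (adjusted p under 0.05), against 31.2% of all genes tested, and 5 (11.9%) were higher, against 31.8%. The remaining 9 passed in neither direction. Since 63.0% of all genes tested passed in one direction or the other, the counts are given by direction, as a description of the list. Their median log2 fold change was -0.21, and the range -0.68 to 0.29, beside a median of 0.01 over all genes tested. With every library thinned to the counts of the smallest, 18 members stayed lower and 2, BUB1 and ANLN, stayed higher. That setting ended 13 calls, 10 of lower and 3 of higher members. Among the genes given with values in every library, these were CDK1 (adjusted p = 0.122, with 3.42e-06 as the lowest over the alternatives), SGO1 (0.181 and 6.29e-04), NUF2 (0.218 and 9.94e-05), ECT2 (0.145 and 8.83e-07) and NEK2. The other 8 were CCNB2, CDC25C, MAD2L1, TTK, KIF11, DLGAP5, ASPM and FOXM1, with the adjusted p given beside each. Thinning also moved the log2 fold changes of some members, and the part of lower depth in these lost calls was not tested. All KO libraries lay below all control libraries for 26 members (25.6% of all genes tested did so) and above them for 4 (27.3% of all genes).

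The background differed with abundance. Members spanned 0.670 to 1075 CPM in controls, and over the 13515 tested genes of that range 33.1% were lower in KO and 29.5% higher, with a median of -0.02. Between the lower and upper quartile of the members' control levels, 85.2 to 219 CPM, lay 2291 tested genes, of which 48.3% were lower, 22.6% were higher and the median was -0.10. The 20 members in that window counted 15 lower and 1 higher. The other members lie outside it. Where its shares are set beside a class below, it may therefore not match every member of that class. Within the members, log2 fold change followed control CPM only loosely (Pearson r = -0.26, Spearman rho = -0.18 across 42 genes, which share the same libraries and are not independent).

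**Figure D2:**
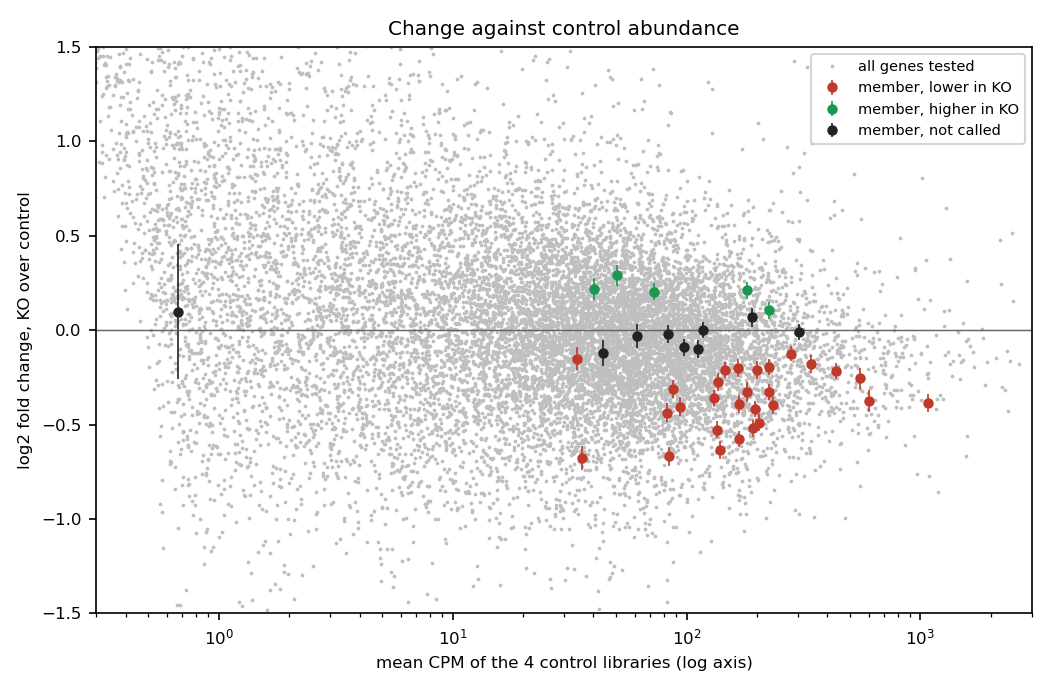
Log2 fold change of KO over control (y axis, with the axis cut at its ends) against mean control CPM (x axis, log scale) for all tested genes in grey and for the 42 members in colour by call. Apart from SPC25 the members lie in the upper part of the abundance range, mostly below 0, with NEK2, SGO1, BUB1, NUF2 and ANLN above it.

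**Figure D3:**
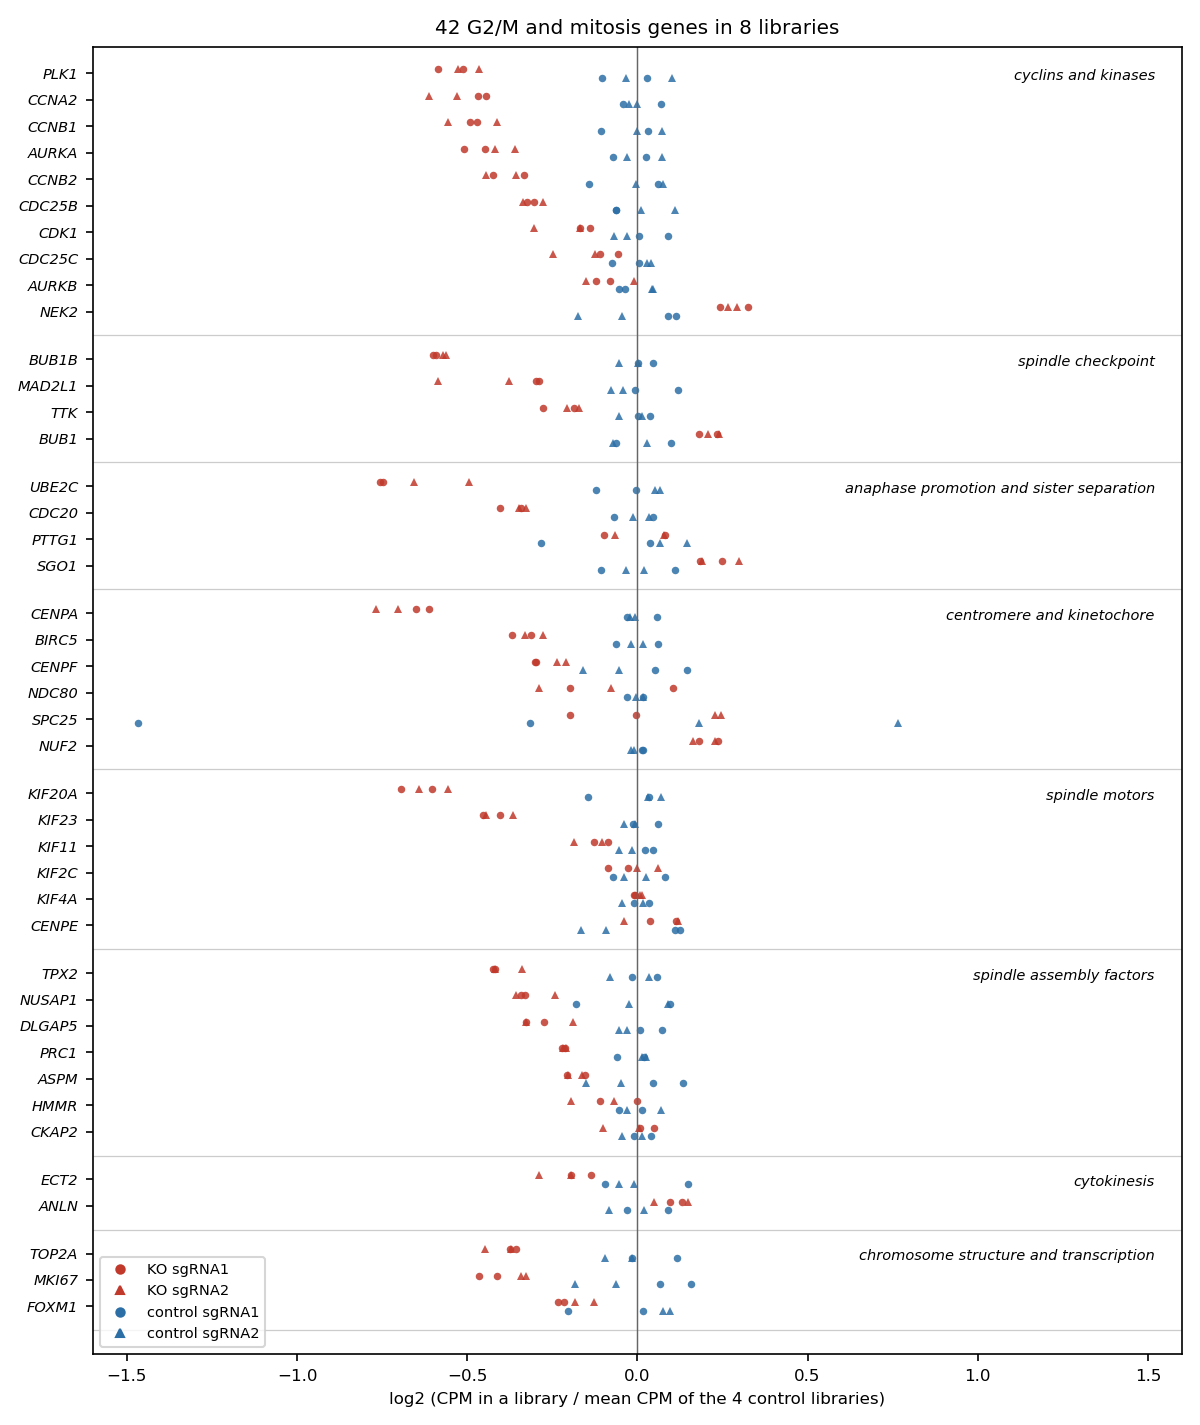
Log2 CPM of each member in each of the 8 libraries relative to the mean of the 4 control libraries. Members are grouped by functional class and ordered by log2 fold change within each class, with KO libraries above control libraries in each line. For members called lower the KO points lie to the left of the control points, except for FOXM1 and CDC25C, whose arms overlap. For NEK2, SGO1, BUB1 and NUF2 the KO points lie to the right.

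Most of the cyclins, phosphatases and kinases that start mitosis were lower in KO. Of 10, 8 were lower (80%), NEK2 was higher and AURKB did not pass. The lower share over all genes tested was 31.2%, and 48.3% in the quartile range of control abundance given above. The class median was -0.36 and the summed level was 79.8% of control. Cyclin B1, encoded by CCNB1 (gene ID 891, chr5:69167150-69178245, GRCh38.p14), is the regulatory subunit of the kinase that drives entry into mitosis. CCNB1 had 145, 147, 138 and 153 CPM in KO libraries and 208, 189, 203 and 214 CPM in control libraries. That gap, a log2 fold change of -0.49 ± 0.046 (SE; edgeR, adjusted p = 1.19e-08), was wider than the spread within either arm. CDK1 (gene ID 983, chr10:60778331-60794852), the kinase itself, had 199.5, 204, 182 and 199.7 CPM in KO and 239, 225, 219.7 and 214 CPM in control libraries. Its decrease of 0.20 on the log2 scale (SE 0.043; edgeR, adjusted p = 5.10e-04) was smaller, and the arms still did not overlap.

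CCNA2, the cyclin of S phase and of mitotic entry, had 139.6, 142, 126 and 134 CPM in KO and 202, 187, 189.7 and 193 CPM in control libraries (log2 fold change -0.52 ± 0.043, edgeR, adjusted p = 1.84e-09). PLK1, the Polo kinase needed for entry, spindle formation and cytokinesis, had 94.8, 89.9, 97.9 and 93.8 CPM in KO and 138, 126, 132 and 145 CPM in control libraries (-0.53 ± 0.047, adjusted p = 6.03e-09). The centrosomal kinase AURKA, which activates PLK1, had 57.8, 60.4, 64.1 and 61.6 CPM in KO and 83.7, 78.4, 80.6 and 86.5 CPM in control libraries (-0.44 ± 0.048). All 3 genes separated the arms completely, with KO levels of 69.7 to 74.1% of control. CCNB2 (-0.41), the second B-type cyclin, and the phosphatases CDC25B (-0.31) and CDC25C, both of which activate CDK1, were also lower. On thinned counts CCNB2 stood at -0.21 and lost its call (edgeR adjusted p = 0.104, with 2.48e-15 as the lowest over the alternatives). CDC25C passed narrowly (-0.15, edgeR adjusted p = 0.0378) with overlapping arms, and its call was lost under 9 of 17 alternative analyses, among them leaving out KO sgRNA1 replicate 1, KO sgRNA2 replicate 1 or either control sgRNA2 library (adjusted p 0.0590 to 0.149, and 0.0147 to 0.909 over all alternatives). Exons of PLK1 share 12.5% of their bases with genes on the other strand, ERN2 among them, and the strand setting of the counting is not given in the sources used here. Reads of AURKA may be split with its copy AURKAP1, which held 418 counts beside 7523 of AURKA over all libraries. For AURKB, the Aurora kinase of the chromosomal passenger complex, the value was -0.09 (adjusted p = 0.0950).

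NEK2, a kinase that splits the centrosome linker before the spindle forms, was the member with the largest increase. It had 59.5, 63.1, 61.6 and 60.6 CPM in KO and 54.4, 53.6, 48.8 and 44.7 CPM in control libraries, a log2 fold change of 0.29 ± 0.055 (edgeR, adjusted p = 1.16e-04). The lowest KO value lay above the highest control value, and the control libraries of sgRNA2 were below those of sgRNA1. Within each library, the ratio of NEK2 to PLK1 counts was 0.651 ± 0.034 in KO and 0.375 ± 0.050 in control libraries (SD, n = 4 each). This pair was chosen after its values were seen, and such a ratio also holds the ratio of the gene lengths, which is the same in every library. With all libraries thinned to the smallest, NEK2 moved to 0.06 and lost its call (adjusted p = 0.807, the highest over all alternatives, the lowest being 1.33e-05).

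The spindle checkpoint genes did not move together: 3 of 4 were lower (75%) and 1 was higher (25%). Beside these stand 31.2% lower and 31.8% higher of all genes tested. In the quartile range of control abundance given above the shares were 48.3% and 22.6%. BUB1B, which encodes BUBR1, a subunit of the mitotic checkpoint complex that inhibits CDC20, had 111, 112, 114 and 113 CPM in KO and 169, 174, 162 and 169 CPM in control libraries (log2 fold change -0.58 ± 0.042, edgeR, adjusted p = 2.64e-10). BUB1, the kinase that marks centromeric chromatin and recruits checkpoint proteins to kinetochores, had 213, 206, 209.6 and 214 CPM in KO and 195, 174, 173 and 185 CPM in control libraries (0.21 ± 0.045, adjusted p = 3.91e-04). Neither gene overlapped between arms, and they moved in opposite directions. Counts of BUB1 over those of BUB1B were 1.92, 1.84, 1.84 and 1.89 in KO libraries and 1.15, 0.999, 1.07 and 1.10 in control libraries, a ratio chosen after its values were seen. The other 2 members of the class were lower: MAD2L1, encoding the MAD2 protein of the same inhibitory complex (-0.39), and TTK, the kinase that starts checkpoint signalling (-0.21). Neither was called on thinned counts, where MAD2L1 stood at -0.17 (edgeR adjusted p = 0.117, with 9.43e-18 as the lowest over the alternatives) and TTK had an adjusted p of 0.128 (lowest 4.03e-06). BUB1B shares 10.2% of its exonic bases with the readthrough gene BUB1B-PAK6 on the same strand.

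Genes of anaphase onset and sister chromatid cohesion also divided. UBE2C, the ubiquitin-conjugating enzyme that starts chains for the anaphase-promoting complex (APC/C), had 50.3, 50.02, 53.5 and 59.9 CPM in KO and 84.2, 77.5, 87.5 and 88.4 CPM in control libraries. At -0.67 ± 0.050 (edgeR, adjusted p = 4.67e-10) it was nearly as far down as CENPA, and its arms lay well apart. CDC20, the activator of the complex and the target of the checkpoint, was lower by less (-0.36), and securin, encoded by PTTG1, did not pass (-0.03, adjusted p = 0.682). SGO1, which protects centromeric cohesin until anaphase, was higher, with 47.9, 45.7, 49.5 and 45.9 CPM in KO and 43.4, 37.4, 39.4 and 40.8 CPM in control libraries (0.22 ± 0.057, adjusted p = 0.00236). The SGO1 arms did not overlap, but an antisense gene covers 17.7% of its exonic bases. Reads of PTTG1 may be split with its near-identical copies, which held 41 (PTTG2) and 292 counts (PTTG3P) beside 6680 over all libraries.

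At the centromere and kinetochore, 3 of 6 members were lower (50%), 1 was higher and 2 did not pass (median -0.19). That share is near the 48.3% of genes lower in the quartile range of control abundance given above, beside 31.2% of all genes tested. No member of the class lies in that range, so it does not match their abundance. In controls SPC25 was at 0.670, CENPA at 35.7, NDC80 at 44.0, NUF2 at 72.4, BIRC5 at 226 and CENPF at 552 CPM. The share is not read as a result about the class. CENPA (gene ID 1058, chr2:26786056-26794589), the histone H3 variant that defines the centromere, showed the largest decrease of all members. It had 22.8, 23.4, 21.9 and 21.0 CPM in KO and 35.0, 37.2, 35.5 and 35.1 CPM in control libraries (log2 fold change -0.68 ± 0.062, edgeR, adjusted p = 7.95e-09). KO libraries thus held 62.4% of the control level, with no library between the arms. BIRC5, which encodes survivin of the chromosomal passenger complex (-0.33), and CENPF, a large protein of the outer kinetochore (-0.26), were lower.

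The NDC80 complex, which grips microtubules at the kinetochore, is represented by 3 of its subunits. NUF2 was higher, with 82.0, 85.3, 84.7 and 81.1 CPM in KO and 73.0, 73.2, 71.8 and 71.4 CPM in control libraries (0.20 ± 0.045, edgeR, adjusted p = 5.20e-04). Its partner NDC80 had a value of -0.12 ± 0.069 (adjusted p = 0.133), and SPC25 was close to absent from every library, at 0.584 to 0.794 CPM in KO and 0.242 to 1.14 CPM in control libraries. SPC25 had between 2 and 15 counts per library, so its value of 0.10 ± 0.36 sets no useful bound. NUF2 counts were 2.05 ± 0.19 times those of NDC80 in KO and 1.64 ± 0.041 times in control libraries (SD, n = 4 each), a pair also chosen after its values were seen.

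Of 6 spindle motors 3 were lower (50%) and 3 did not pass, with a median of -0.07. That share is near the 48.3% of genes lower in the quartile range of control abundance given above, and is not read as a result about motors. KIF20A, which carries the passenger complex to the midzone, had 85.7, 91.3, 89.0 and 94.4 CPM in KO and 142, 125, 142 and 146 CPM in control libraries (log2 fold change -0.63 ± 0.047, edgeR, adjusted p = 4.18e-10). KIF23, a subunit of centralspindlin, was also lower (-0.42 ± 0.042). KIF11, the plus-end motor that pushes spindle poles apart, was lower by less (-0.12 ± 0.041, edgeR adjusted p = 0.0116), a call that ended on thinned counts (adjusted p = 0.0989, with 0.00185 as the lowest over the alternatives). The 3 others did not pass, with KIF2C, a microtubule depolymerase, at -0.02, the chromokinesin KIF4A at 0.00, and CENPE, which moves chromosomes to the equator, at 0.07. For these 3 the standard errors were 0.042 to 0.051. KIF4A shares its sequence closely with KIF4B, which held 1390 counts beside 12711 of KIF4A, and the split of reads between them is uncertain.

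Of 7 spindle assembly factors, 5 were lower (71.4%) and 2 did not pass (median -0.22). Lower genes made up 31.2% of all genes tested and 48.3% of those in the quartile range of control abundance given above. TPX2, which activates AURKA on spindle microtubules, had 175, 175, 185 and 175 CPM in KO and 244, 232, 221 and 239.8 CPM in control libraries (log2 fold change -0.40 ± 0.044, edgeR, adjusted p = 1.18e-07). The arms of TPX2 did not overlap. NUSAP1, a microtubule-bundling protein (-0.33), DLGAP5, a kinetochore-fibre stabiliser (-0.28), PRC1, the crosslinker of midzone microtubules (-0.22), and ASPM, a spindle pole protein (-0.18), were lower as well. Thinning ended the calls of DLGAP5, then at -0.11 (edgeR adjusted p = 0.394, with 3.17e-09 as the lowest over the alternatives), and of ASPM (adjusted p = 0.0656, lowest 1.19e-05). HMMR was at -0.10 (adjusted p = 0.0825) and CKAP2 at -0.01. In NUSAP1 and PRC1, 62.2% and 57.6% of exonic bases are also annotated to another gene on the same strand, so their levels may be those of shared reads.

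The cytokinesis pair had opposite calls of unequal firmness. ECT2, the exchange factor that activates RhoA at the division plane, had 181, 174, 163 and 174 CPM in KO and 221, 187, 192 and 198 CPM in control libraries (-0.21 ± 0.048, edgeR, adjusted p = 6.52e-04). Anillin, encoded by ANLN, a scaffold of the contractile ring, had 241, 247, 249.7 and 233 CPM in KO and 239.7, 221, 212 and 228 CPM in control libraries (0.10 ± 0.045, adjusted p = 0.0466). For ECT2 the arms were apart; for ANLN they overlapped. The call of ANLN was lost under 9 of 17 alternatives, among them leaving out any 1 library other than KO sgRNA2 replicate 2 and control sgRNA1 replicate 1 (adjusted p 0.0795 to 0.227, and 0.00722 to 0.227 over all alternatives).

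Chromosome structure and transcription genes were lower in all 3 cases, with a summed level of 77.5% of control. The share of lower genes was 31.2% over all genes tested and 48.3% in the quartile range of control abundance given above. TOP2A at 1075 and MKI67 at 602 control CPM lie above that range, so it does not match their abundance. TOP2A, the topoisomerase that untangles sister chromatids, had 841, 829, 831 and 789 CPM in KO and 1165, 1064, 1007 and 1064 CPM in control libraries (log2 fold change -0.39 ± 0.048, edgeR, adjusted p = 6.57e-07). MKI67, which encodes the Ki-67 protein that coats mitotic chromosomes and marks proliferating cells, had 452, 436, 479 and 475 CPM in KO and 630.0, 672, 530.3 and 576 CPM in control libraries (-0.38 ± 0.058, adjusted p = 1.01e-05). Both separated the arms, and both sgRNA1 controls of MKI67 lay above both of sgRNA2. FOXM1, the forkhead factor that drives late cell cycle genes, was lower by less (-0.20 ± 0.047, adjusted p = 8.39e-04), and the shallowest control library lay inside the KO range. On thinned counts FOXM1 stood at -0.08 and lost its call (edgeR adjusted p = 0.510, with 5.87e-06 as the lowest over the alternatives). Of the exonic bases of FOXM1, 15.9% are also annotated to ITFG2 on the other strand.

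Per transcript length, the members spanned a wide range of levels. In TPM (counts divided by the deposited gene lengths and scaled to a common sum), TOP2A was highest at 406 ± 16.3 TPM in KO and 507 ± 38.3 TPM in control libraries. PRC1 came next in control libraries, with 341 TPM in KO and 378 TPM in control, then MAD2L1 with 258 TPM in KO and 322 TPM in control, and CCNB1 with 194 TPM in KO and 259 TPM in control. At the low end, above SPC25, stood SGO1 with 16.8 TPM in KO and 13.7 TPM in control libraries. CENPA, though it fell the most, was among the less abundant members, at 45.1 ± 2.49 TPM in KO and 69.1 ± 2.66 TPM in control libraries (SD, n = 4 each).

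KO and control libraries that carry the same guide number were also compared, although the labels say no more of what they share. With sgRNA1, 25 members were lower and 2 higher (over all genes tested 23.3% and 24.3%), with a median of -0.25. With sgRNA2, 25 were lower and 5 higher (25.4% and 25.7%), with a median of -0.22. Lower with both guides were 23 members, higher with both were BUB1 and NUF2, and none was called in opposite directions. The share of all genes tested that was called with both guides was not counted. These counts are therefore not read as a result about the members. The calls of BUB1 and NUF2 with sgRNA1 did not hold by DESeq2, without a filter, on thinned counts, or without KO sgRNA1 replicate 1, KO sgRNA1 replicate 2 or control sgRNA2 replicate 2, where 0 members were higher, and 1 was without KO sgRNA2 replicate 1, control sgRNA2 replicate 1 or either control sgRNA1 library. CENPA had -0.63 ± 0.093 with sgRNA1 and -0.72 ± 0.084 with sgRNA2, and UBE2C -0.71 ± 0.077 with sgRNA1 and -0.63 ± 0.069 with sgRNA2. For CCNB1 the values were -0.46 ± 0.068 with sgRNA1 and -0.52 ± 0.065 with sgRNA2. NEK2 and SGO1 were at 0.18 ± 0.077 and 0.17 ± 0.087 with sgRNA1, where neither was called, and at 0.39 ± 0.071 and 0.25 ± 0.079 with sgRNA2, where both were. Across the 42 members the changes of the guides had a Pearson r of 0.71 and a Spearman rho of 0.84, in libraries that the guides did not share.

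**Figure D4:**
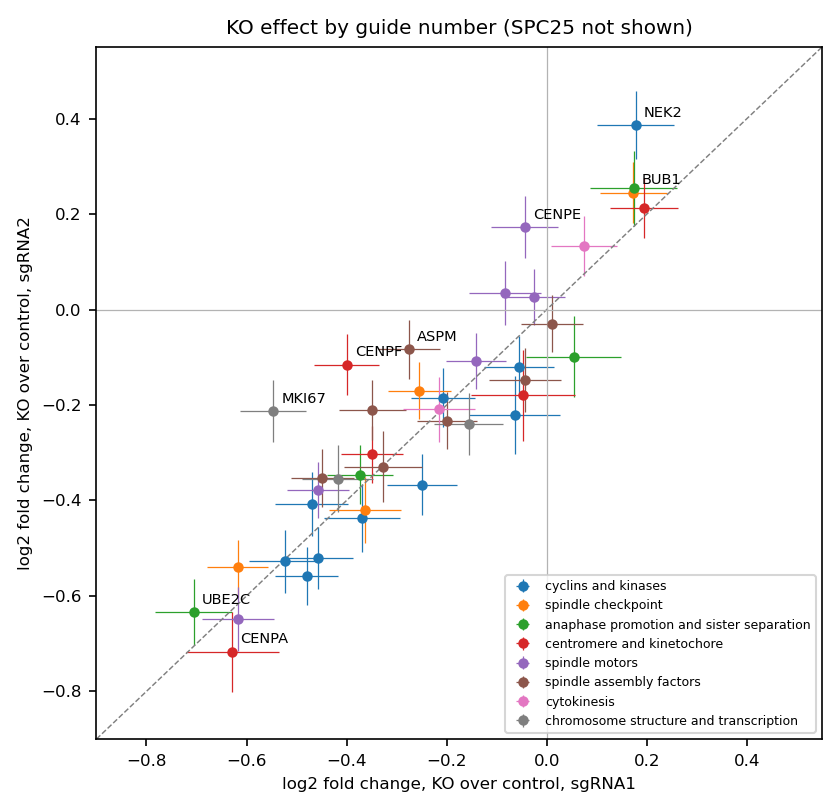
Log2 fold change of KO over control for each member with sgRNA2 (y axis) against sgRNA1 (x axis), each from 2 KO and 2 control libraries of that guide, with standard errors as bars and the line of equal change. CENPA, UBE2C, KIF20A and BUB1B lie low on both axes and BUB1 and NUF2 high on both, while MKI67, CENPF and ASPM lie above the line.

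No member differed between the guides when the difference itself was tested (edgeR, 0 of 42, as in DESeq2 and voom, and 0 of all genes tested, with 638 at an unadjusted p under 0.05). At an unadjusted p under 0.05 there were 4 members, MKI67, CENPF, CENPE and ASPM, each less negative or more positive with sgRNA2. MKI67 had -0.55 ± 0.066 with sgRNA1 and -0.21 ± 0.065 with sgRNA2, a difference of 0.33 ± 0.093. With sgRNA1 the value was -0.40 ± 0.065 for CENPF, -0.28 ± 0.063 for ASPM and -0.04 ± 0.067 for CENPE. With sgRNA2 it was -0.12 ± 0.064 for CENPF, -0.08 ± 0.061 for ASPM and 0.17 ± 0.064 for CENPE. These 4 genes have the greatest counted lengths among the members, 13123 bases for MKI67, 10888 for ASPM, 10377 for CENPF and 8615 for CENPE.

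Length also went with the difference between the control lines, which contain no KO library. No member passed there (edgeR, 0 of 42, with 7 at an unadjusted p under 0.05, and 0 by DESeq2 and voom), against 0.0277% of all genes. MKI67 stood at -0.23 ± 0.066 in control sgRNA2 relative to control sgRNA1, CENPE at -0.25 ± 0.067, CENPF at -0.21 ± 0.065 and ASPM at -0.19 ± 0.063. Across the members this difference fell with log2 counted length (Pearson r = -0.42, Spearman rho = -0.64, 42 genes; r = -0.66, rho = -0.62 without SPC25, left out after its values were seen), and so it did across 9849 tested genes with at least 10 control CPM (-0.28 and -0.29), all of which share these 4 libraries. The 1239 of those genes of at least 8000 bases had a median of -0.07, against 0.00 for all 9849. KO against control followed length less over those 9849 genes, with a Pearson r of 0.08, and among the members with r = 0.22 and rho = 0.25. Across the members without SPC25 the difference of the KO effect between guides rose with log2 counted length (r = 0.67, rho = 0.57, 41 genes), a quantity that holds the same control libraries as the difference between the control lines. In the analysis without KO sgRNA2 replicate 1, control sgRNA1 replicate 1 or control sgRNA1 replicate 2 the number of genes differing between guides became 3, 25 and 23, in that order.

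**Figure D5:**
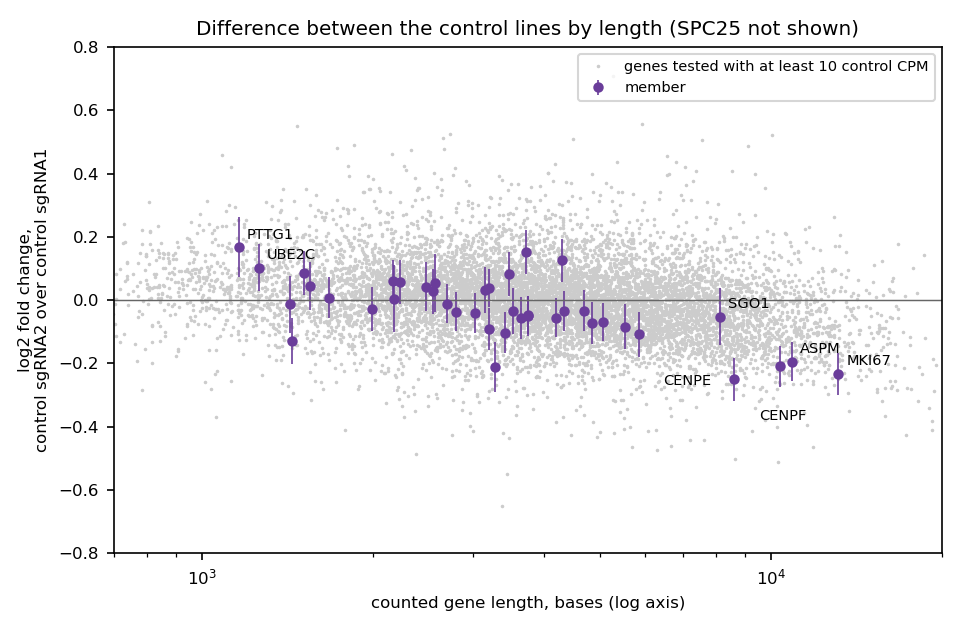
Log2 fold change of control sgRNA2 over control sgRNA1 (y axis, with the axis cut at its ends) against counted gene length in bases (x axis, log scale) for genes with at least 10 control CPM in grey and for the members, with standard errors, in colour. SPC25 lies outside the plot, and MKI67, CENPF, CENPE and ASPM lie at the long end below 0.

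Of 107 other genes of mitosis in 7 lists, 105 were tested, 53 were lower in KO (50.5%) and 15 higher (14.3%), with a median of -0.11. Over all genes tested 31.2% were lower and 31.8% higher, and over genes between the quartiles of the members' control abundance 48.3% and 22.6%. The share of lower genes was near that of this abundance range. Many of the 105 genes lie outside the range, such as CDC26 at 1.77 and SMC1A at 1168 control CPM. It is therefore not a matched background for this list. SKA1 had no count in any library and KIFC1 averaged 0.107 CPM in KO and 0.0921 CPM in control libraries, so neither was tested. Among the 105 tested, all KO libraries lay below all control libraries for 41 genes and above them for 12. Over all genes tested the shares were 25.6% below and 27.3% above. Of 13 other regulators of mitotic entry, 9 were lower and 0 higher (median -0.21), among them GTSE1, a G2-phase microtubule protein (-0.56), PLK4, the kinase of centriole duplication (-0.41), and PKMYT1, an inhibitory kinase of CDK1 (-0.55). Other motors and midzone genes had 4 of 8 lower and 0 higher, led by KIF22 (-0.52), RACGAP1, the partner of KIF23 in centralspindlin (-0.48), and KIF14 (-0.43).

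Lists of complexes held genes of both directions, with shares of lower genes of 35.3 to 50%, beside 31.2% of all genes tested and 48.3% in the abundance range above. Of 33 other centromere and kinetochore genes tested, 15 were lower (45.5%) and 6 higher (median -0.05), with decreases of CENPM (-0.54), the CENPA chaperone HJURP (-0.44) and INCENP (-0.35), the scaffold of the passenger complex. Among 14 cohesin genes 7 were lower and 3 higher, led by separase, encoded by ESPL1 (-0.67), PDS5A (-0.59) and STAG2 (-0.43). Condensin had 4 of 8 lower, with NCAPD3 (-0.43), NCAPD2 (-0.33) and NCAPG2 (-0.24), and 2 higher. APC/C subunits and co-factors showed no common direction, with 6 of 17 lower, 3 higher and a median of 0.03. In that list ANAPC4 (-0.66) and the activator FZR1 (-0.46) were lower, whereas UBE2S, which extends the ubiquitin chains that UBE2C starts, was higher (0.27). The ratio of UBE2S to UBE2C counts was 5.10 ± 0.27 in KO and 2.67 ± 0.043 in control libraries (SD, n = 4 each), a pair chosen after its values were seen.

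Of the MuvB and DREAM components and their E2F partners, 8 of 12 were lower and 1 was higher (median -0.17). TFDP1, the dimer partner of E2F proteins (-0.53), and RBBP4, a histone-binding subunit (-0.38), were lower, and LIN54, the subunit that contacts the CHR, was higher (0.46 ± 0.050, edgeR, adjusted p = 8.81e-08). Genes of G1/S and DNA replication, an earlier window of the cycle, counted 21 of 32 lower and 6 higher (65.6% and 18.8%), with a median of -0.15. They included the helicase subunit MCM2 (-0.49) and CDC45 (-0.42) among the lower, and RRM2 (0.42), a subunit of ribonucleotide reductase, among the higher. Beside them stand 31.2% and 31.8% of all genes tested, 48.3% and 22.6% of those in the abundance range above, and 66.7% and 11.9% of the 42 mitotic members, and the difference between the lists was not tested.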

How the data were processed

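The authors deposited a table of raw gene counts for each library, which per the file headers also held the length of each gene in bases. Reads had been counted with featureCounts on hg38, per the submitters' processing notes, and libraries came from a stranded kit, per the labels' protocols. Aligner, annotation and strand setting were not given in the sources used here, so reads shared between copies or overlapping genes may have been dropped or counted. Of the 28395 table entries, 459 lacked a gene ID (0.0284 to 0.0425% of counts) and were left out, and 27744 of the rest were named from RefSeq on GRCh38.p14. Exon overlaps came from GENCODE v29.

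Genes were kept by filterByExpr on 4 groups of 2 libraries (minimum count 10, minimum total 15). KO was compared with control by edgeR 4.0.16 (quasi-likelihood F test, TMM, R 4.3.3) over the 8 libraries, guide number included as a term, with 5 residual degrees of freedom. Guides, their difference and the control lines were contrasts of 4 group means (4 residual degrees of freedom), and each pair borrows the spread of all groups. Benjamini-Hochberg adjustment covered the 14455 tested genes, with calls made under an adjusted p of 0.05, and no list was tested as a set. The common coefficient of variation between libraries was 0.0473. CPM were scaled by TMM factors. Replicates of a group differed by more than counting error. A chi-square of replicate counts against equal shares, per degree of freedom, was 1.6 for KO sgRNA1 and 4.1 for KO sgRNA2. It was 1.9 for control sgRNA2 and 8.0 for control sgRNA1, which holds the shallowest library. The script was tested on simulated counts.

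Values in every library are given for CCNB1, CDK1 and MKI67, the 8 called members lowest in KO, all called higher, and the member of each functional class with the smallest p. In each other list up to 3 called genes with the smallest p are named. Other genes and the count ratios were named after their values were seen. The members and lists were chosen with earlier results of these data known. Alternatives were DESeq2 1.42.0, DESeq2 size factors in edgeR, limma-voom (limma 3.58.1), library totals alone, no filter, a stricter filter (1 CPM in 4 libraries), no guide term, a replicate block, libraries thinned to the smallest, and each library left out.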

Additional observations from a re-analysis of the deposited data

Results flagged for a closer look

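Of 102 sets of 4 libraries (each member and each class sum in each arm), 2 had a library far from the other 3, where chance gives about 1 in 20. TPX2 in the KO arm was highest in KO sgRNA2 replicate 1, at 185 CPM (185.15), while the other KO libraries lay between 174.54 and 175.38 CPM. All 4 stayed below the lowest control library. PRC1 in the control arm was lowest in control sgRNA1 replicate 2, the shallowest library, at 417 CPM (417.35), against 439.58 to 443.46 CPM in the other controls, and it too stayed above every KO library. No cause was tested for either.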

How the results depend on the processing

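Under the 17 alternatives 25 of 42 members kept their side of the threshold. Of these, 19 were called and also kept their direction. Among the uncalled ones, PTTG1, SPC25, KIF2C, KIF4A and CKAP2 had values on both sides of 0. The members' median stayed between -0.26 and -0.18. The counts of members lower and higher were 27 and 5 by DESeq2, 28 and 5 by voom, 30 and 4 without a filter, and 27 to 30 and 4 to 5 with 1 library left out. Thinning every library to the 3723992 counts of the smallest, which removes most counts by construction, left 18 members lower and 2 higher, 2050 lower and 2001 higher of all genes, 21 and 5 of the other mitosis genes, and 7 and 3 of the G1/S genes. Within guides it left 14 lower and 0 higher with sgRNA1, and 13 lower and 2 higher with sgRNA2. Thinning also moved log2 fold changes, that of MAD2L1 from -0.39 to -0.17 and that of NEK2 from 0.29 to 0.06. The part of lower depth in the calls that ended was not tested. The median of all genes turned to -0.0037 when thinned, and was 0.04 with library totals alone and 0.0995 without a filter, which tests more genes. Members higher with sgRNA1 numbered 0 by DESeq2 and 0 without a filter, and 0 to 2 with 1 library left out, where members higher with sgRNA2 numbered 1 to 6. Genes differing between guides numbered 11 without a filter and 0 to 25 with 1 library left out. The cause of these shifts was not tested. Same-numbered libraries did not deviate together (r of -0.093 to 0.025 between pairs of groups), so the numbers were not taken as pairs; with a replicate block 27 members were lower and 4 higher, and CDC25C (adjusted p = 0.0504) and ANLN (adjusted p = 0.0571) lost their calls. Depth limits SPC25 in particular.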

Other observations

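Some pairs of genes whose products work together changed in opposite directions or unequally, named after their values were seen. The ratio of ESPL1 (separase) to PTTG1 (securin, its inhibitor) counts was 1.48 ± 0.12 in KO and 2.35 ± 0.21 in control libraries (SD, n = 4 each), since ESPL1 was lower in KO and PTTG1 did not pass. In condensin the ratio of SMC4 to NCAPD2 counts was 2.58 ± 0.10 in KO and 1.79 ± 0.12 in control libraries, with SMC4 at 0.20 and NCAPD2 at -0.33 on the log2 scale. CCNB1 over CDK1 was 0.742 ± 0.023 in KO and 0.908 ± 0.070 in control libraries. In each of these 3 pairs the KO and control libraries did not overlap. Of the cohesin genes NIPBL, the cohesin loader, was at 0.48 ± 0.048 and ESCO2, an acetyltransferase of cohesin, at 0.33 ± 0.058. In the G1/S list ORC6, an origin recognition subunit, was at 0.42 ± 0.051, beside 0.00 for PCNA.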
